A study of Schizosaccharomyces pombe with 4 samples.

Results

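A set of 7 genes that lie near the ends of fission yeast chromosomes was followed through early meiosis in cells with and without the histone variant H2A.Z. They are pcm2, say1, dak2, tlh2, alr2, abc3 and nhe1, chosen by gene name from a list of genes on subtelomeric clones that leaves out sugar and nitrogen uptake. They account for 10 of the 4999 probe sets of the array and for 7 of its 2899 named genes. All 7 were found, 5 under their present names, say1 under its older name mug180 and nhe1 under its older name sod2. The present sod2 is another gene, so nhe1 was matched by its gene identifier. The gene tlh2 had 4 probe sets and the others had 1 each.

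All cultures were h+/h- diploids of Schizosaccharomyces pombe that carried ade6-210/216, his5-303/+ and leu1-32/+, and meiosis was started by taking away nitrogen. Wild-type cells were compared with cells that in addition were ura4-D18/ura4-D18 and had both copies of pht1, the gene of H2A.Z, replaced by ura4+ (pht1D::ura4+/pht1D::ura4+). Each genotype was sampled at 1.5 h and at 3 h, and purified poly(A) RNA was hybridized to 1 Affymetrix array per genotype and time. There were thus 4 arrays and no replicate. It is not stated if the 3 h cells of a genotype were a later sample of its 1.5 h culture.

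H2A.Z takes the place of ordinary H2A in some nucleosomes, mostly beside transcription start sites, and is put there by the SWR1 complex. Chromosome ends in fission yeast are capped by the shelterin proteins, and the genes next to them are kept at low levels by heterochromatin, in which the Clr4 methyltransferase marks histone H3 and the Swi6 protein binds the mark. Many subtelomeric genes come on when nitrogen is short or during meiosis. The 7 genes share this location but not a function, since they encode a protein repair enzyme, a sterol enzyme, a metabolic kinase, a DNA helicase, an amino acid racemase and a pair of transporters.

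Values are log2 RMA values, in which the distributions of the arrays have been made alike, and levels are compared between arrays for the same probe set only. A floor was set at the 25th percentile of each array, which lay between 10.08 and 10.13. The pht1 probe set itself read 12.70 and 12.86 on the arrays with the gene, and 7.37 and 7.36 on those without it. A value under 8.37, 1 log2 unit above the deleted pht1, is treated as too dim to set a level. The change of the genotype difference from 1.5 h to 3 h gave the spread of a difference between 2 arrays. It was 0.13 log2 units for the 2314 genes that passed the floor on 2 or more arrays and 0.17 for the 585 dimmer genes, from the median absolute deviation, and 0.23 and 0.24 as standard deviations. Stage markers of meiosis differed between the genotypes. The 6 middle and late meiosis markers had a median level of 7.94 at 1.5 h and 10.56 at 3 h without the deletion, against 12.07 and 13.05 with it, and the 6 early markers 8.58 and 11.69 against 10.08 and 11.99. The 5 measured markers of cytokinesis had medians of 11.12 and 10.21 against 10.19 and 9.25. The median of 7.94 is under 8.37 and so sets no level. Whether the genotypes differed in stage, or only in the RNA of these markers, was not tested. Nor was the part of stage in the results below.

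Among the 7 genes, pcm2 and say1 were about 2-fold or more above wild type in the deletion at both times, and dak2 was higher by a smaller step at both. The genes abc3 and nhe1 were lower in the deletion or near wild type. The genes alr2 and tlh2 were dim on every array. Of the 4 arrays, pcm2 was above the floor on 1 and say1 on 0, so the differences of pcm2 and say1 rest on low signal. As the arrays hold bulk RNA, more cells with a transcript and more transcript per cell cannot be told apart.

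**Figure D1:**
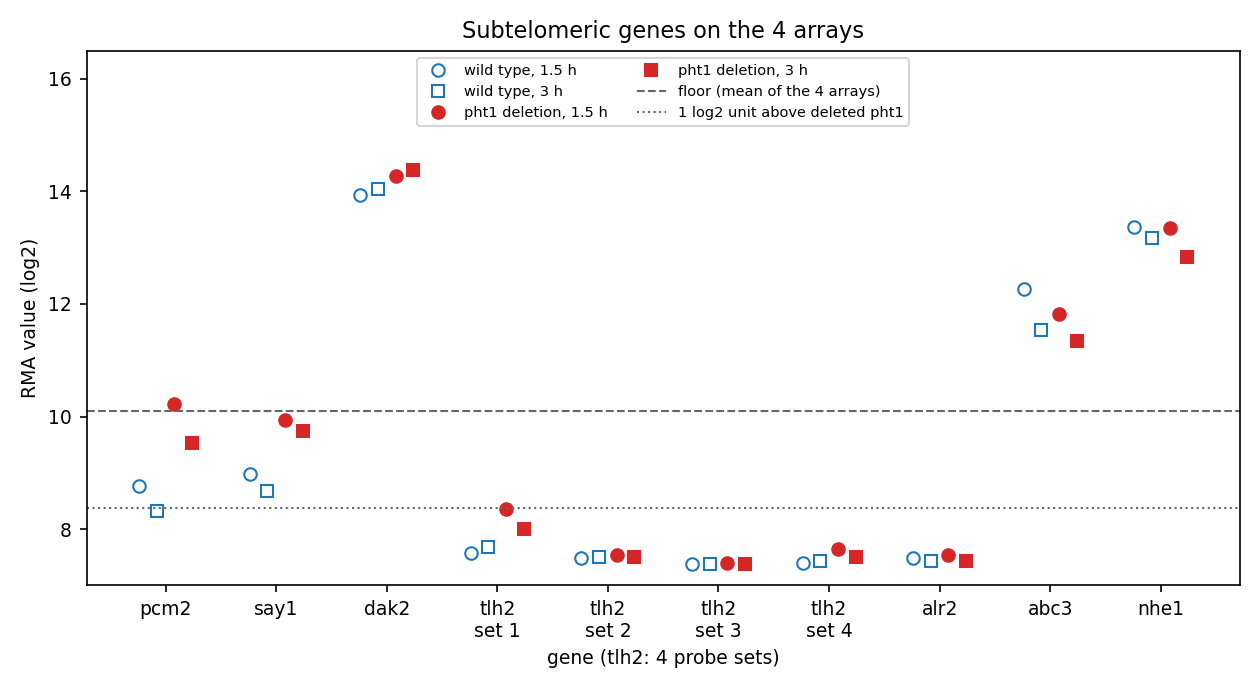
RMA values (log2) of the 10 probe sets on the 4 arrays, with open blue symbols for wild type, filled red symbols for the pht1 deletion, circles for 1.5 h and squares for 3 h, 1 array a point. The dashed line is the floor and the dotted line the level of 8.37. Both deletion points of pcm2, say1 and dak2 lie above both wild-type points, and heights are comparable within a probe set only. The same holds, at values under 8.37, for the tlh2 sets except 1778554_at. The share of all genes with such a separation was not counted.

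The gene pcm2 (SPAC869.08) encodes a predicted protein-L-isoaspartate O-methyltransferase, an enzyme family that repairs aged aspartyl and asparaginyl residues in proteins. In wild type it read 8.77 at 1.5 h and 8.31 at 3 h, and in the deletion it read 10.22 and 9.53. Both deletion arrays were above both wild-type arrays. The share of all genes with such a separation was not counted, so here and below it does not set a gene apart. The difference was 1.45 log2 units at 1.5 h, which is 2.73-fold and the 37th highest of the 2331 genes above the floor. A gene is counted there if its brighter array passes the floor, and pcm2 passed through the deletion array only. At 3 h the measured difference was 1.22, but wild type then read under 8.37, and the deletion array was at least 2.23-fold above that level. No array of 3 h was above the floor. From 1.5 h to 3 h the difference of pcm2 was -0.69 in the deletion, and in wild type the 3 h array was at least 0.40 lower, counted to the level of 8.37, with no test of either.

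The gene say1 (SPBPB2B2.02) is named after a sterol deacetylase of S. cerevisiae, and its older name mug180 records it as meiotically upregulated. Wild type had values of 8.97 at 1.5 h and 8.68 at 3 h, and the deletion 9.93 and 9.74. The genotypes did not overlap. The difference was 0.96 (1.95-fold) at 1.5 h and 1.06 (2.09-fold) at 3 h, so it changed between the times by 0.10, less than the spread between arrays. All 4 values lay below the floor. In wild type the 3 h array was 0.29 below the 1.5 h array and in the deletion 0.19 below it, so the meiotic increase that the older name refers to was not seen between these times.

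The gene dak2 (SPAC977.16c) encodes a dihydroxyacetone kinase, which feeds dihydroxyacetone into glycolysis when glycerol is used. It was bright, at 13.93 and then 14.04 in wild type. The deletion arrays had 14.28 and 14.38. Both deletion arrays were above both wild-type arrays, by 0.35 (1.27-fold) at 1.5 h and 0.33 (1.26-fold) at 3 h. In size these differences were the 227th highest of 2331 genes above the floor at 1.5 h and the 197th of 2337 at 3 h. The difference was thus almost the same at both times, with a change of -0.02, and from 1.5 h to 3 h dak2 was higher by 0.12 in wild type and by 0.10 in the deletion.

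The gene tlh2 (SPBCPT2R1.08c) encodes a RecQ-type DNA helicase and is the outermost protein-coding gene on the right arm of chromosome II. Copies of it at other chromosome ends, tlh1 among them, are nearly identical, so its probe sets may read several loci. Its brightest probe set (1775967_at) read 7.57 and then 7.67 in wild type. With pht1 deleted it read 8.36 and 8.00. The deletion arrays were higher, by 0.79 at 1.5 h and 0.32 at 3 h (0.18 with quantile normalization), but every value was under 8.37, so the size of the difference is not settled. The other probe sets gave less. The set 1779068_s_at differed by 0.25 and 0.07, the set 1775264_s_at by 0.05 and 0.00, and the set 1778554_at by 0.01 and -0.01. By the array maker's naming, the suffix s_at marks sets whose probes match more than a single transcript. All 16 values of the 4 sets lay between 7.37 and 8.36.

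The gene alr2 (SPBC359.02) encodes an alanine racemase, which interconverts the L and D forms of alanine. Wild type had 7.49 and 7.44, and the deletion had 7.53 and 7.44, all near the reading of the deleted pht1. A level of alr2 was not detectable on these arrays in either genotype, and no fold is given.

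The gene abc3 (SPBC359.05) encodes an ABC transporter of the vacuole membrane whose transcript is known to be repressed when iron is plentiful. Wild type had 12.27 at 1.5 h and 11.54 at 3 h, and the deletion had 11.83 and 11.35. The deletion was lower by 0.44 at 1.5 h (0.737 times wild type) and by 0.19 at 3 h (0.875 times), and the genotypes overlapped, as the deletion at 1.5 h was above wild type at 3 h. From 1.5 h to 3 h the difference of abc3 was -0.72 in wild type and -0.48 in the deletion. In wild type 31 of the 2330 genes above the floor had a more negative one. Among 13 iron-responsive genes above the floor in wild type, abc3 had the median value of -0.72, and 4 were lower by 2-fold or more, frp2 (-1.74), str3 (-1.33), fio1 (-1.28) and sib2 (-1.10), and 1 was higher, isa1 (2.33), where 0.386% and 2.96% of all genes were.

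The gene nhe1 (SPAC977.10) encodes the sodium and proton antiporter of the plasma membrane, which removes sodium from the cell. Wild type had 13.38 and 13.17 at these times, and the deletion had 13.35 and 12.83. The difference was -0.02 at 1.5 h and -0.34 at 3 h, so the 3 h deletion array stood below the other 3. From 1.5 h to 3 h the difference of nhe1 was -0.20 in wild type and -0.52 in the deletion, and these differed by -0.32, where this quantity had a spread of 0.18 from the median absolute deviation and a standard deviation of 0.32 over the 2314 genes. It was past the first and not the second, and was not tested.

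Against a 2-fold difference with the brighter array above the floor, 4 of the 7 genes could be counted at 1.5 h and 3 at 3 h. At 1.5 h, 1 of the 4 was higher in the deletion, pcm2, and 0 were lower, where 2.57% of all genes above the floor were higher and 0.901% lower. The gene pcm2 passed the floor through the deletion array only, and the shares over all genes follow the same rule. At 3 h the count was 0 of 3 each way, where 1.88% of genes were higher and 0.856% lower. Without the floor, 1 of 7 was higher at 1.5 h (pcm2) and 2 of 7 at 3 h (pcm2 and say1), where 3.04% and 2.41% of all 2899 genes were. None of the 7 was lower by 2-fold without the floor, where 0.793% and 0.828% of genes were. The median difference of the 7 genes without the floor was 0.35 at 1.5 h and 0.32 at 3 h, and that of all genes -0.03 and -0.01. These medians depend on tlh2, whose own value is the one at 3 h. They were 0.28 and 0.10 with its probe sets averaged, 0.20 and 0.17 without tlh2, an alternative chosen after seeing the data, and 0.18 at 3 h with quantile normalization. Over time none of the 7 changed by 2-fold in wild type, where 2.96% of genes above the floor were higher at 3 h and 0.386% lower, or in the deletion, where 2.36% were higher and 0.473% lower. Counts this small describe single genes and say nothing of the 7 as a group.

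**Figure D2:**
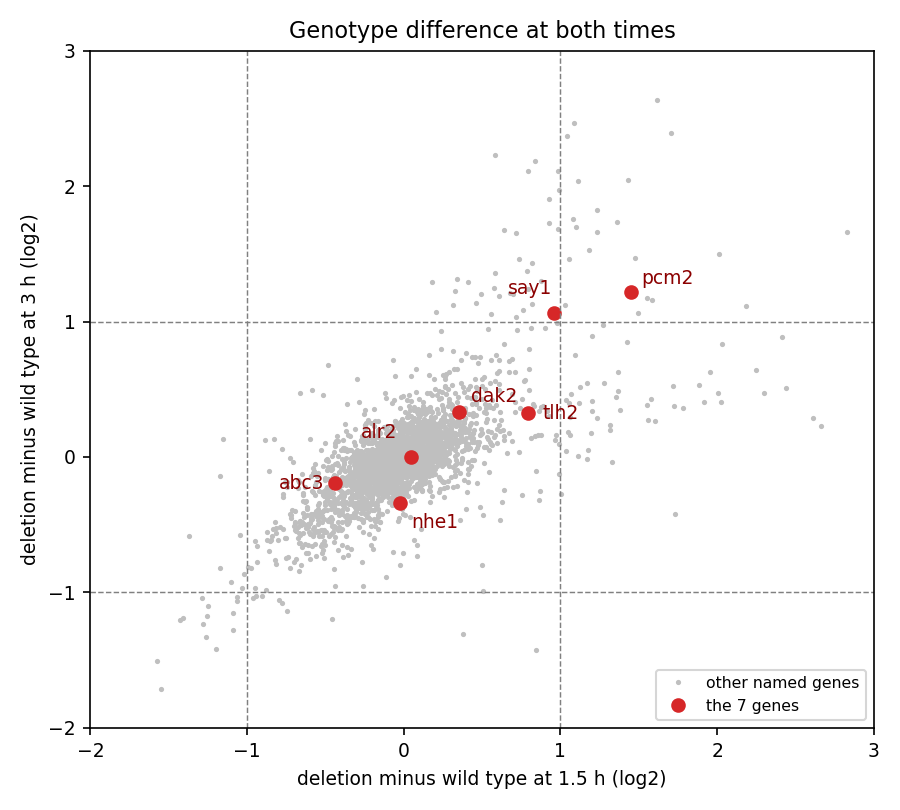
Deletion minus wild type (log2) at 1.5 h on the horizontal axis and at 3 h on the vertical axis, with the 7 genes in red (tlh2 by its brightest probe set) and the other named genes in grey, 1 array a genotype and time. Dashed lines mark 2-fold, 17 genes lie outside the axes, and pcm2 lies past 2-fold both ways while alr2 lies close to 0.

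The part of a difference that both times shared was tested by limma with genotype and time as additive terms. The fit has 1 residual degree of freedom for a gene and judges the spread between these 4 arrays, not between cultures. It covered 3 of the 7 genes, the ones that passed the floor on 2 or more arrays. Of these, dak2 rose in the deletion by 0.34 ± 0.03 (SE; limma, adjusted p = 0.0335 over 2314 genes) and was higher at both times, where 0.951% of genes were called higher and 1.17% lower. The call of dak2 was lost when the variance did not follow intensity (limma, adjusted p = 0.0989) and when the floor was put at the array median (limma, adjusted p = 0.0711), and over its alternatives the adjusted p ran from 0.0115 to 0.0989. The genes abc3 (-0.32 ± 0.10 SE; limma, adjusted p = 0.154) and nhe1 (-0.18 ± 0.10 SE; limma, adjusted p = 0.323) did not pass. With no floor, the same fit over 2899 genes called pcm2 (1.33 ± 0.11 SE; limma, adjusted p = 0.0249) and say1 (1.01 ± 0.10 SE; limma, adjusted p = 0.0271) besides dak2 (limma, adjusted p = 0.0309), but neither tlh2 (0.56 ± 0.15 SE; limma, adjusted p = 0.116) nor alr2 (0.02 ± 0.10 SE; limma, adjusted p = 0.904). The pcm2 estimate takes in the wild-type 3 h value under 8.37, for which only a bound holds, so its size is not settled. Those of tlh2 and alr2 rest on values that are all under 8.37, so they give no size either. In that setting 1.83% of genes were called higher and 1.83% lower.

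Positions were counted in protein-coding genes from each end of a chromosome in the RefSeq gene order of assembly ASM294v3, since the files name no genome build. On chromosome I, nhe1 was the 19th and dak2 the 24th gene from the left end and pcm2 the 25th from the right end. On chromosome II, alr2 was the 34th and abc3 the 37th from the left end, say1 the 21st from the right end and tlh2 the first. Genes above and below the floor were mixed in this order: tlh2 at the very end and alr2 further in stayed below it on every array, while nhe1 and dak2 between them stayed above it. The differences were mixed too, with 1.45 and 0.96 at 1.5 h for pcm2 and say1 and -0.02 for nhe1 at similar positions.

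Next to pcm2 lies mel1, the gene of a secreted alpha-galactosidase, which read 9.59 and then 9.22 with pht1 present, and 11.60 and then 10.71 with it deleted. Its differences were 2.01 at 1.5 h and 1.50 at 3 h, and like pcm2 it was lower at 3 h than at 1.5 h in both genotypes. Over the 4 arrays, with the mean of each gene subtracted, mel1 was the gene closest to pcm2 among the 2399 others above the floor on at least 1 array, at a Euclidean distance of 0.45 log2 units. The next were msh3, a mismatch repair gene, at 0.60 and spo3, a gene of the forespore membrane, at 0.71, both far from a chromosome end. On the other side of pcm2, the next measured genes had other values. The proline permease gene put4, the second gene from pcm2, was at -0.21 and -0.65, and the amino acid permease gene cat1, the third, at -0.30 and 0.57.

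The closest genes to say1 were spo3 at a distance of 0.24, msh3 at 0.28 and eno102, an enolase gene, at 0.37, among 2400 genes. Of these, eno102 also lies near an end, as the 19th gene from the left end of chromosome II, with differences of 0.78 and 0.57. No gene within 5 positions of say1 or of tlh2 had a named probe set. A ranking over 4 values describes these arrays and carries no test.

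The neighbours of alr2 and abc3 included genes on either side of wild type. The amino acid transporter gene aat1, next to alr2, was at -0.72 and -0.45, and mug14, a meiotically upregulated gene next to abc3, was at 2.61 and 0.29. In wild type mug14 was higher by 2.88 at 3 h than at 1.5 h while abc3 was at -0.72. The genes dak2 and nhe1 lie 5 positions apart, and their differences at 3 h were 0.33 and -0.34. The gluconate transporter gene ght3, 4 positions from dak2, was at 1.43 and 0.85.

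**Figure D3:**
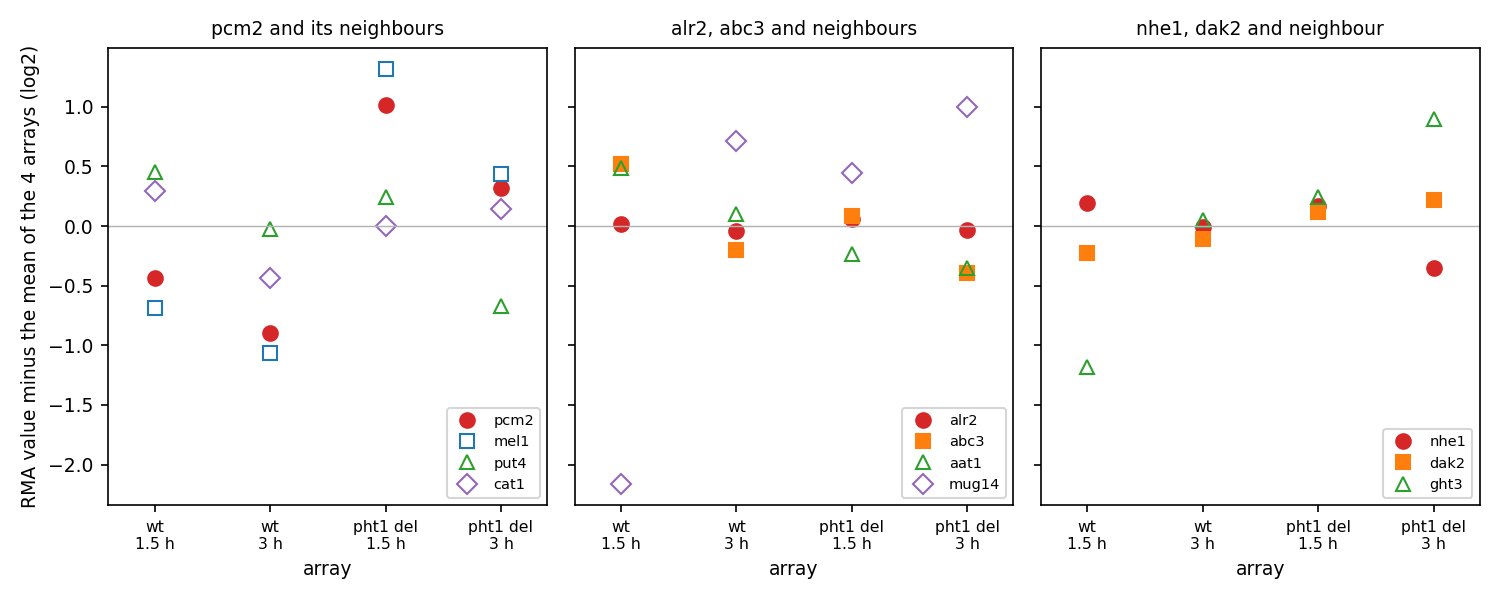
RMA value minus the mean of the 4 arrays (log2) on each array for pcm2, alr2 with abc3, and nhe1 with dak2 (filled symbols) and the measured genes within 5 positions of them (open symbols), 1 array a point. The points of mel1 follow those of pcm2, with both low in wild type and high in the deletion, while mug14 and abc3 run apart.

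The wider regions hold 200 protein-coding genes within 50 positions of an end of chromosome I or II, of which 48 had a named probe set, the 7 genes among them. At 1.5 h, 6 of the 39 above the floor (15.4%) passed 2-fold on the higher side in the deletion and 1 was lower, where 2.57% and 0.901% of all genes were. The 6 were pcm2, mel1, ght3, the spore wall gene isp3 (at least 5.68, as wild type read below 8.37), mug14 and gal10 of the galactose cluster (1.48), and the lower was usp109 of the U1 snRNP (-1.58). Of these, pcm2, mel1, isp3 and gal10 were below the floor in wild type and were counted through the deletion array only. The gene usp109 was counted through the wild-type array only. At 3 h, 3 of 38 (7.89%) were higher, isp3 (1.41), mel1 and gal10 (1.47), and 2 were lower, usp109 (-1.51) and aes1 (-1.08), where 1.88% and 0.856% of all genes were. At 3 h mel1 was counted through the deletion array only and usp109 through the wild-type array only. Without the floor, 6 of 48 (12.5%) were higher at 3 h and 2 (4.17%) lower, where 2.41% and 0.828% of all 2899 genes were. Added on the higher side were pcm2, say1 and the hexose transporter gene ght7, which was at least 1.14 log2 units above a wild-type value under 8.37. The median difference of those above the floor was -0.08 at 1.5 h and 0.11 at 3 h, against -0.03 and -0.01 over all genes. Of the genes that were higher, isp3 is itself one of the middle and late meiosis markers. In wild type isp3 read under 8.37 at 1.5 h and 13.11 at 3 h. Between these times mug14 was higher by 2.88, ght3 by 1.23 and gal10 by 0.99. The genes pcm2 and mel1 were instead lower at 3 h. Of 37 genes of the regions bright enough for that step, 3 (8.11%) passed 2-fold upward and 1 (2.70%) downward. Across the array the shares were 2.96% and 0.386%. The part of meiotic stage in the genotype counts of the regions was not tested.

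By end of the chromosome, the genes past 2-fold were spread over all 4 ends. The left end of chromosome I had 2 of 5 genes past 2-fold on the higher side at 1.5 h (ght3 and isp3), the right end of chromosome I had 2 of 8 (pcm2 and mel1), the left end of chromosome II 1 of 8 (mug14) and its right end 1 of 18 (gal10). On the right end of chromosome I each other measured gene stood lower without pht1 at 1.5 h, by 0.17 for klf1 to 0.81 for pgt1. At 3 h cat1 was instead higher, by 0.57, and the others were lower, by 0.32 for klf1 to 0.66 for mmf2. Over all genes above the floor, 1026 of 2331 were higher by any amount at 1.5 h and 1113 of 2337 at 3 h. Within 25 positions of an end, a width chosen after seeing the data, 3 of 9 genes above the floor were higher at 1.5 h (pcm2, mel1 and gal10) and 2 of 8 at 3 h (mel1 and gal10), while 0 were lower at 1.5 h and 1 of 8 at 3 h (aes1). At 1.5 h pcm2, mel1 and gal10 passed the floor through the deletion array only, as did mel1 at 3 h. The shares over all genes are the same 2.57% and 1.88% higher and 0.901% and 0.856% lower. As 152 of the 200 genes had no named probe set, these counts cover a small share of the regions.

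**Figure D4:**
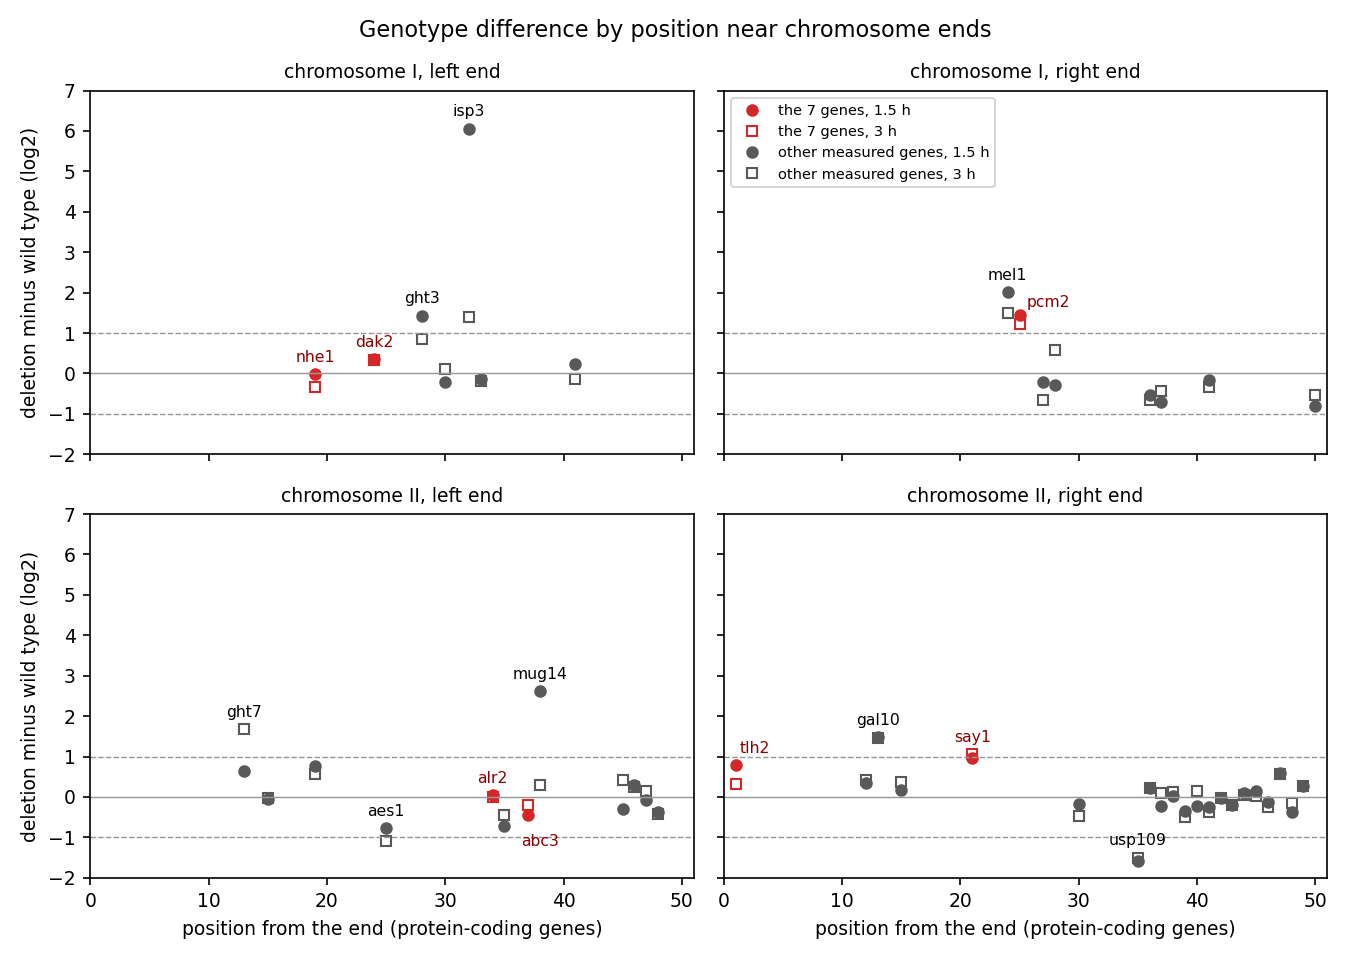
Deletion minus wild type (log2) against the position from the chromosome end in protein-coding genes, for the 48 measured genes within 50 positions, in 4 panels for the ends of chromosomes I and II, with circles for 1.5 h, open squares for 3 h and the 7 genes in red. Genes past 2-fold at either time are named, dashed lines mark 2-fold, and most points lie between the lines.

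Of the genes with the same stem name as a member but another number, 6 were measured, and these 6 lie outside the regions. The regions leave out chromosome III, however. There pcm1 was the 43rd gene from the left end and alr1 the 55th from the right end, so pcm1 too lies near an end. None differed by 2-fold at either time. Of the 4 that limma fitted, 0 were called and 1 had an unadjusted p under 0.05, as did 26.6% of all genes fitted. The dihydroxyacetone kinase gene dak1 was at 0.02 and -0.03, beside 0.35 and 0.33 for dak2. The gene pcm1 was at -0.50 and -0.55, opposite in sign to pcm2 (1.45 and 1.22). The alanine racemase gene alr1 read 9.92 in wild type at both times, and 10.14 and 9.89 in the deletion. The transporter genes abc1, abc2 and abc4 were at 0.13, -0.12 and 0.07 at 1.5 h and at 0.16, 0.09 and 0.02 at 3 h.

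Among 8 measured genes of glycerol and dihydroxyacetone metabolism, dak2 among them, 0 passed 2-fold, the median difference was 0.05 and then 0.06, and dak2 was the only one called by limma. Over all genes above the floor, 2.57% were 2-fold higher and 0.901% lower at 1.5 h, and 1.88% and 0.856% at 3 h. The limma fit called 0.951% of genes higher and 1.17% lower. These shares are the background for the other lists below too. The gluconeogenic gene fbp1 was at 0.50 and 0.58 without a call, and the glycerol dehydrogenase gene gld1 at -0.05 and 0.04. Of 14 measured iron-responsive genes, abc3 among them, 13 were above the floor at 1.5 h with a median of -0.37, of which isa1 (1.17) was at least 2-fold higher and the ferric reductase gene frp2 (-1.15) at least 2-fold lower. At 3 h their median was 0.06 over 12 with 0 past 2-fold. Of the 12 that limma fitted, 0 were called and 4 had an unadjusted p under 0.05 (26.6% of all genes). Among other ABC transporter genes, pmd1 (-0.58 and -0.58) and bfr1 (-0.64 and -0.28), both of drug efflux, were lower without a call, while hmt1 (0.10 and 0.08) was higher without a call. Of 8 measured genes of alkali cation and proton transport, nhe1 among them, the proton pump gene pma2 alone passed 2-fold at either time above the floor (at least 2.42 at 3 h, as wild type read below 8.37).

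Genes for the factors that cap and silence chromosome ends differed by less than 2-fold at both times. Of 11 measured genes of shelterin and telomere end protection, 0 passed 2-fold, and 9 that were bright enough had median differences of 0.09 at 1.5 h and 0.05 at 3 h. Of these 9, 6 were higher in the deletion by any amount at 1.5 h and 5 at 3 h. The telomerase gene trt1 was at 0.71 and 0.33 and taz1 at 0.41 and 0.09. Lower at both times were rap1 (-0.33 and -0.33), tpz1 (-0.07 and -0.16) and ccq1 (-0.13 and -0.10). Of 17 measured genes of subtelomeric silencing, 0 passed 2-fold. Of the 10 that limma fitted, 0 were called and 4 had an unadjusted p under 0.05, beside 26.6% of all genes. Those bright enough had a median difference of -0.15 over 9 at 1.5 h and -0.18 over 10 at 3 h, and all 17 without the floor had -0.12 and -0.14, where all genes above the floor had -0.03 and -0.01. The deacetylase gene clr3 was at -0.25 and -0.32, the methyltransferase gene set2 at -0.03 and -0.47, and swi6 at -0.12 and 0.00. The RecQ helicase gene rqh1, related to tlh2, was at -0.09 and -0.14.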

How the data were processed

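The authors deposited log2 values, 1 for each probe set on each array, and the submitters' processing notes name RMA as their source. Its version is not given in the sources used here. RMA makes the distributions of arrays alike, which removes differences in total mRNA. They were not exactly equal here, with array medians between 11.23 and 11.27. Of 4999 probe sets, 2917 had 1 symbol in the platform annotation, 20 several and 2062 were unnamed here. By gene identifier 2914 matched RefSeq assembly ASM294v3, used for names and gene order, and 113 symbols were updated. The brightest probe set stood for each of 14 genes with several. Differences are 1 array minus 1 array with no p-value, counted at 2-fold (1 log2 unit) when the brighter array lay above the 25th percentile. limma 3.58.1 in R 4.3.3 fitted genotype and time additively with Benjamini-Hochberg adjustment at 0.05, and was tested on simulated data. Named were the 7 genes, list members past 2-fold, genes of the same stem, neighbours within 5 positions and the 3 genes closest in pattern, and a few list members beside these. The members, lists and the level of 8.37 were chosen with earlier results of these data known. Older names that belong to another gene were left out of the lists. No file held sequences, so none is given. Alternatives covered scaling, floor, fold, probe sets and variance model. Other steps used pandas 2.3.3, numpy 2.4.6 and, for lowess, statsmodels 0.14.6, under Python 3.11.15.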

Additional observations from a re-analysis of the deposited data

Results flagged for a closer look

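The change of tlh2 from 1.5 h to 3 h went opposite ways in the genotypes, with 0.10 in wild type and -0.37 in the deletion, on 1 array each. The difference was not tested, and all 4 values of the probe set were under 8.37.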

How the results depend on the processing

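With 1 array a group the array number and signal limit every value, and members below the floor can be counted only without it. Of the genes past 2-fold among the 7, the count of 1 higher at 1.5 h became 0 with the floor at the array median and 0 at 3-fold. The count of 0 higher at 3 h became 2 without the floor. The counts of 0 lower at 3 h than at 1.5 h became 1 in wild type and 1 in the deletion at 1.5-fold. The limma count of 1 member became 0 with no intensity trend, 3 with no floor and 0 with the floor at the array median, and it was 1 with quantile normalization and with all probe sets. Over all genes limma called 49, and 31, 106, 1, 166 and 186 in those settings. Over all genes above the floor, the genotype counts at 1.5 h were 60 higher and 21 lower at 2-fold, 113 and 105 at 1.5-fold, 32 and 1 at 3-fold, and 38 and 11 with the stricter floor. At 3 h they were 44 and 20, 75 and 76, 26 and 1, and 29 and 11, and 70 higher without a floor. For the change over time in wild type they were 69 and 9, 119 and 61 at 1.5-fold and 38 and 1 at 3-fold, and in the deletion 55 and 11, 104 and 33, and 16 and 2, with 32 higher under the stricter floor. Of 91 member values recomputed with other scalings or probe sets, 87 shifted by under 0.13, 4 shifted further, all of tlh2, and no called value changed sign. Values near 0 that were not called did so with lowess. At 1.5 h the genotype difference of alr2 went from 0.05 to -0.01 and that of nhe1 from -0.02 to 0.01. No paired analysis was possible because each group has 1 array, so there are no replicate numbers to serve as a block, and the limma fit compares genotypes within time.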
